A study of Mus musculus with 13 samples.

Results

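The level of every gene was compared between CD45- cells of the thymus collected on day 7 after sublethal total body irradiation (TBI) and the same preparation at steady state, to ask which genes were back near the steady-state level and which were not. The comparison used 7 of the 13 libraries of the series, chosen by their labels: the 3 libraries of day 7 and the 4 libraries of steady state. All mice were wild-type C57BL/6 at 2 months of age. The day 7 mice had received TBI at a sublethal dose. The steady-state mice were not irradiated: the sample labels give them as untreated, and the count table names them as PBS controls taken beside days 1, 4 and 7. They are called here PBS of day 1, PBS of day 4, and PBS of day 7 replicates 1 and 2, and they form 1 group. The methods call the libraries biological replicates, which they elsewhere equate with single mice, but the number of mice per library is not given for the bulk data, so p-values measure the spread between libraries. The cells were sorted for absence of CD45, the surface protein of leukocytes, and their sex is not given for the bulk libraries, while the TBI time courses described in the paper used female mice. A tag closes each column name in the table without explanation. Its part m0 was carried by all 3 day 7 libraries and by no steady-state library, so this part of the tag and day 7 cannot be told apart.

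The CD45- fraction of the thymus holds thymic epithelial cells (TECs), fibroblasts (FBs), endothelial cells (ECs) and the cells around vessels. Cortical TECs (cTECs) attract progenitors and drive the early steps of T cell development. Medullary TECs (mTECs) display proteins of other tissues, the tissue-restricted genes, partly under the regulator AIRE, and some mTECs take on features of tuft, microfold, skin, muscle, ciliated or secretory cells and are called mimetic cells. TBI kills thymocytes within hours, damages the stroma and is followed by regrowth of the organ from surviving and incoming progenitors.

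Total counts ran from 22501215 to 48419232 at steady state and from 37054467 to 51609165 at day 7. Levels are in CPM, counts scaled to TMM-normalized library sizes. Lineage genes showed what the libraries held. Pdgfra, a receptor of FBs, was at 677, 659, 884 and 756 CPM at steady state (in the order PBS of day 1, PBS of day 4, PBS of day 7 replicates 1 and 2, which is kept throughout) and at 751, 616 and 662 CPM in day 7 replicates 1, 2 and 3. Pecam1, an adhesion molecule of ECs, was at 308, 237, 292 and 222 CPM against 199, 374 and 242 CPM. Both groups overlapped for these genes, and the 95% interval of the log2 fold change ran from -0.62 to 0.34 for Pdgfra and from -0.51 to 0.59 for Pecam1. The epithelial adhesion gene Epcam was at 155, 33.4, 109 and 36.7 CPM against 40.1, 16.6 and 22.99 CPM. The steady-state libraries differed more from each other in Epcam than in the FB and EC genes, and day 7 lay at their low end. Ptprc, which encodes CD45 itself, was at 119, 24, 105.5 and 38.2 CPM against 21.6, 606 and 224 CPM. Day 7 replicates 2 and 3 exceeded every steady-state library and replicate 1 lay below them all, in cells sorted for absence of this protein. In bulk libraries, fewer cells of a type and less RNA per cell cannot be told apart, which holds for every level that follows.

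Across all genes, 1 of the 19984 tested was called at an adjusted p of 0.05 or less by edgeR's quasi-likelihood test, which is 0.005% (Gm32051, higher at day 7). By the same test 2691 genes (13.5%) had an unadjusted p under 0.05, of which 1103 (5.52%) were higher at day 7 and 1588 (7.95%) lower. DESeq2 called 1081 of 19960 genes (5.42%), 382 higher and 699 lower, and limma voom called 0. A missing call does not place a gene at its steady-state level. Genes were therefore also sorted by the 95% interval of their log2 fold change. For 7473 genes (37.4%) the interval lay wholly within 2-fold of steady state. The same held for 28.7% of genes at day 1 and 32.9% at day 4, against the same steady-state libraries. At day 1, edgeR called 335 genes higher (1.68%) and 134 lower (0.671%), and at day 4 it called 10 higher (0.05%) and 48 lower (0.24%). The remaining 12510 genes (62.6%) were neither called nor placed within 2-fold at day 7, so their return was not resolved. How often a gene could be placed depended on its level: the share within 2-fold was 1.36%, 20.9%, 56.1% and 71.3% from the lowest to the highest quartile of expression. The median log2 fold change over all genes was 0.00.

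**Figure D1:**
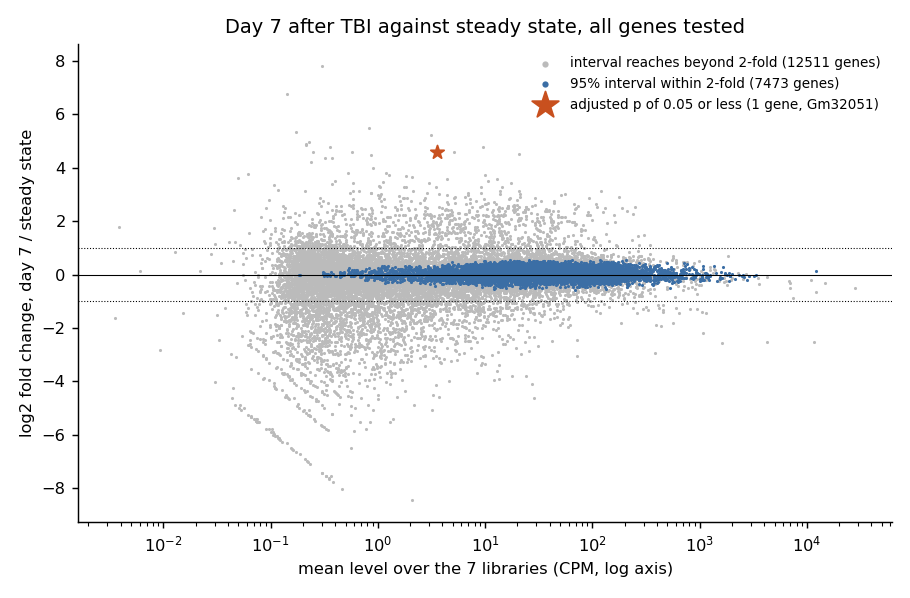
Each point is 1 of the 19984 genes tested, with its mean CPM over the 7 libraries (log axis) and its log2 fold change at day 7 over steady state; the dotted lines mark 2-fold. The 7473 genes whose 95% interval lay within 2-fold (blue) sit mostly above 1 CPM, low genes spread far below the line, and the star is Gm32051.

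Gm32051 (ENSMUSG00000106438), a long intergenic noncoding RNA with no role known here, lies on chromosome 5 from 105409367 to 105415670 on the plus strand of GRCm38 and ends shortly before the start of Lrrc8b, at 105415775 on the same strand. It was at 0.482, 0.300, 0.323 and 0.194 CPM at steady state and at 3.08, 13.4 and 7.43 CPM in the day 7 libraries. Every day 7 library lay above every steady-state library. It rose by a log2 fold change of 4.57 (95% interval 3.36 to 5.78, adjusted p = 0.0345, edgeR). At days 1 and 4 its log2 fold change was -1.62 (adjusted p = 0.221) and -2.32 (adjusted p = 0.20). None of its tested neighbors was called at day 7. Lrrc8b was at -0.20 (adjusted p = 0.95), Lrrc8c at -0.22 (adjusted p = 0.945), Gbp6 at 0.29 (adjusted p = 0.784), Gbp11 at 1.23 (adjusted p = 0.484) and Gm42141 at 2.18 (adjusted p = 0.267). Day 7 replicates 2 and 3, which were highest in Gm32051, were also highest in thymocyte genes. With both left out, the log2 fold change from replicate 1 alone was 3.25. That arm is 1 library, which the fit assumes to vary like the other groups, and its adjusted p was 0.968. The bases around its start are shown because it is the only gene called. They come from the RefSeq promoter table of GRCm38.p6 (chr5:105409098-105409397, plus strand), running 5′ to 3′ from 250 bases before the start to 50 after it, and the capitals mark the letters TTTGAA, which 18.1% of all 27025 promoters in the table hold on either strand. The window held 0 CCAAT.
Gm32051: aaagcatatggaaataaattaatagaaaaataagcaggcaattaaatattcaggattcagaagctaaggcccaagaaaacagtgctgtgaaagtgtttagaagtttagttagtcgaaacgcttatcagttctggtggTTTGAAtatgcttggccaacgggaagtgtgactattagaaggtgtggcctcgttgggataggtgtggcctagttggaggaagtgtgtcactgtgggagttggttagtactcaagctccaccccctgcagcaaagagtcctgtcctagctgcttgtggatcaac

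Among the groups of genes near the steady-state level, the interferon response stood out by its size at day 1. These genes encode antiviral proteins and the factors that switch them on. At day 7, 18 of 25 were within 2-fold of steady state, where 37.4% of all genes were, and 0 were called (0 also by DESeq2, and 0 had an unadjusted p under 0.05). That share rose with level, to 56.1% and 71.3% in the upper quartiles of expression, and the list was not matched for level. The median log2 fold change of the list was 2.83 at day 1, 0.19 at day 4 and -0.10 at day 7. Ifit3, an antiviral protein that binds other IFIT proteins, was at 81.4, 66.1, 65.2 and 65.0 CPM at steady state and at 72.5, 52.9 and 70.7 CPM at day 7. The groups overlapped, and the log2 fold change was -0.09 (95% interval -0.70 to 0.53), after 4.67 at day 1 (adjusted p = 2.29e-05). Isg15, the ubiquitin-like protein of this response, was at 41.1, 35.4, 29.3 and 34.3 CPM against 37.4, 37.2 and 40.9 CPM, a log2 fold change of 0.14 (95% interval -0.49 to 0.76). Irf7, the factor that amplifies interferon production, had a log2 fold change of 0.18 (95% interval -0.49 to 0.85). Ifit1, another IFIT protein, was not placed within 2-fold. It was at 148, 83.6, 81.4 and 71.1 CPM against 55.0, 52.4 and 76.0 CPM, with an interval from -1.35 to 0.04. In 2 of the 25, Oasl2 and Usp18, every day 7 library lay below every steady-state library (4.67% of all genes did), at log2 fold changes of -0.40 (adjusted p = 0.561) and -0.59 (adjusted p = 0.40).

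The stromal cell lists other than mural cells had medians near 0 at day 7, and the lists differed in how many members could be placed. Of 15 EC genes, 9 were within 2-fold, where 37.4% of all genes were, and 0 were called, with a median log2 fold change of -0.03. The lists were not matched for level, and 56.1% and 71.3% of genes in the upper quartiles of expression were within 2-fold. Kdr, the main VEGF receptor, was at 423, 173, 438 and 300 CPM against 280, 348 and 349 CPM, with an interval from -0.79 to 0.72. Cdh5, the cadherin of EC junctions, was at 50.9, 31.7, 48.6 and 34.0 CPM against 28.3, 40.6 and 33.1 CPM, with an interval from -0.77 to 0.20. Both genes thus stayed inside the margin of 2-fold. Of 15 FB genes, 5 were within 2-fold, a share near that of all genes, and 0 were called, with a median of -0.08 (-0.99 at day 1). Dcn, the collagen-binding proteoglycan decorin, was at 6140, 16070, 7643 and 16960 CPM against 12840, 7764 and 9542 CPM. Its interval ran from -1.01 to 0.57, just past the margin. Penk, the enkephalin precursor, was within 2-fold (interval -0.66 to 0.88). Of 10 genes of mural cells, the pericytes and smooth muscle cells around vessels, 9 were below steady state and 1 above. Of these genes 3 were within 2-fold and 0 were called, with a median of -0.40. Of 6 Schwann cell and 6 mesothelial genes, 0 were within 2-fold, with medians of -0.01 and 0.23, so their return was not resolved.

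Among 20 matrix genes 3 were within 2-fold, and the steady-state libraries differed widely: Col3a1, a fibrillar collagen, was at 6322, 63870, 15170 and 44960 CPM against 25500, 14050 and 28620 CPM. Its interval, from -1.91 to 0.87, resolved nothing. Tnc, the matrix glycoprotein tenascin C made by FBs of remodeling tissue, was the matrix gene farthest below steady state. It was at 397, 1140, 353 and 376 CPM against 178, 117 and 160 CPM. Every day 7 library lay below every steady-state library, and its log2 fold change of -1.90 (95% interval -2.93 to -0.88) did not pass the test (adjusted p = 0.117, edgeR). At day 1 Tnc had been 0.81 above steady state (adjusted p = 0.376).

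Of 20 growth factors and chemokines that stroma supplies to thymocytes and TECs, 6 were within 2-fold. Fgf7, which encodes the keratinocyte growth factor that acts on TECs, was at 23.97, 45.4, 16.98 and 24.6 CPM against 36.9, 24.7 and 27.1 CPM, with an interval from -0.58 to 0.76. Bmp4, a regenerative factor of ECs and FBs, was at 62.5, 19.1, 53.5 and 33.8 CPM against 44.7, 54.1 and 35.0 CPM, with an interval from -0.69 to 0.85. Neither gene was distinguishable from steady state, and both were inside the margin, as was Cxcl12, which draws progenitors to the cortex (interval -0.63 to 0.47). Il7, the survival factor of early thymocytes made by TECs, was not placed, with a log2 fold change of -0.44 (95% interval -1.41 to 0.54). Fgf21, a metabolic hormone, was at 40.04, 2.77, 12.8 and 4.70 CPM against 1.46, 1.82 and 1.03 CPM. The groups did not overlap, and the log2 fold change of -3.39 did not pass the test (adjusted p = 0.117).

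Genes that had moved between days 1 and 4 were chosen from 6 other libraries, which shared with the day 7 comparison only the fit and its estimate of spread. By edgeR, 285 genes (1.43%) were called between day 4 and day 1, 214 lower (1.07%) and 71 higher (0.355%) at day 4, and 27.7% of all genes were within 2-fold between those days. At day 7, 167 of the 285 (58.6%) were within 2-fold of steady state, against 37.4% of all genes and 71.3% of the highest quartile of expression. The 285 were not matched for level. The 167 made up 2.23% of all genes within 2-fold, and 0 of the 285 were called by edgeR or voom. At an unadjusted p under 0.05, 3.51% of the 285 were higher (10 genes) and 11.2% lower (32 genes), against 5.52% and 7.95% of all genes, and DESeq2 called 4 higher and 21 lower, where it called 1.91% and 3.5% of all genes. Of the 214 that were lower at day 4 than at day 1, 116 (54.2%) were within 2-fold, and their median difference from steady state on the log2 scale was 2.05 at day 1, 0.01 at day 4 and -0.01 at day 7. Of the 71 that were higher at day 4, 51 (71.8%) were within 2-fold, with medians of -1.11, 0.37 and -0.11. The share within 2-fold was 23.9% (57 of 238) when day 7 replicates 2 and 3 were left out, a fit with wider intervals since it leaves 1 day 7 library. Among the 6 largest of these rises were Inmt, Omd, Angptl1, Cyp27a1 and Penk. Omd, the bone and FB proteoglycan osteomodulin, was at 17.2, 11.6, 17.4 and 17.7 CPM at steady state and at 23.2, 26.4 and 10.98 CPM at day 7. Its log2 fold change was -2.35 at day 1 (adjusted p = 0.00709) and 0.34 at day 7 (95% interval -0.46 to 1.14). Angptl1, a secreted angiopoietin-like protein, went from -2.81 at day 1 (adjusted p = 0.00399) to -0.27 at day 7 (95% interval -1.14 to 0.60). Cyp27a1, the mitochondrial sterol 27-hydroxylase, went from -2.05 (adjusted p = 0.00864) to -0.27 (95% interval -1.01 to 0.47). The intervals of Omd, Angptl1 and Cyp27a1 all included 0 and ended close to the margin. Inmt, at a log2 fold change of 0.41 at day 7, had an interval from -0.78 to 1.6, which reached well past it.

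**Figure D2:**
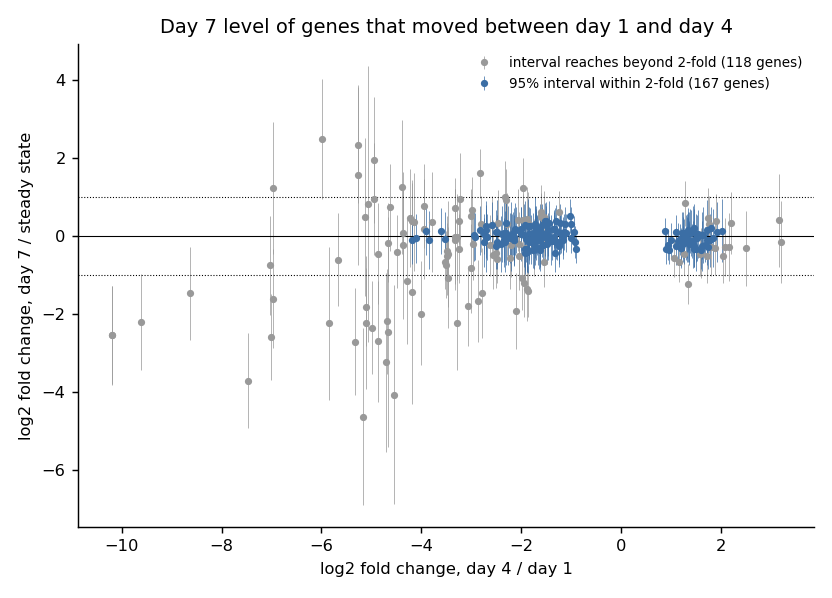
Each point is 1 of the 285 genes called between day 4 and day 1, with the log2 fold change between those days on the x axis and the log2 fold change of day 7 over steady state, with its 95% interval, on the y axis; the dotted lines mark 2-fold. The 167 genes in blue had intervals within 2-fold, and the widest intervals belong to genes far to the left.

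p53 target genes, which arrest or kill irradiated cells, lay between the groups named so far and those that follow. Of 20, 9 were within 2-fold, 15 were above steady state and 0 were called, and the median log2 fold change was 0.71 at day 1, 0.53 at day 4 and 0.28 at day 7. Bax, which opens the mitochondrial membrane in apoptosis, was at 45.4, 57.0, 31.5 and 45.3 CPM against 73.0, 93.1 and 60.5 CPM. Every day 7 library was above every steady-state library, as in 2.82% of all genes, and its log2 fold change of 0.75 (95% interval 0.28 to 1.23) did not pass the test (adjusted p = 0.141), after a rise of 1.47 at day 1 (adjusted p = 0.00266). Aen, an apoptotic nuclease, was at 31.7, 30.2, 27.5 and 30.8 CPM against 43.3, 48.5 and 36.5 CPM. It was above steady state in all 3 libraries and still within 2-fold (interval 0.12 to 0.90). Cdkn1a, the p21 cell cycle inhibitor, had a log2 fold change of 0.50 (95% interval -0.16 to 1.17) after a rise of 1.80 at day 1 (adjusted p = 0.00694). Mdm2, the ligase that degrades p53, was within 2-fold (interval -0.13 to 0.75).

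cTEC genes were below steady state without a call. All 14 had a negative log2 fold change, with a median of -0.48, 3 were within 2-fold (Enpep, Ctsl and Krt18) and 0 had an unadjusted p under 0.05 or a call by DESeq2. Foxn1, the transcription factor that makes an epithelial cell a TEC, was at 94.6, 12.6, 39.0 and 17.96 CPM against 29.0, 18.9 and 13.5 CPM. Psmb11, the cTEC proteasome subunit that shapes positive selection, was at 173, 46.2, 127 and 61.7 CPM against 125, 74.9 and 59.0 CPM. Dll4, the Notch ligand that commits progenitors to the T lineage, was at 75.7, 41.3, 56.8 and 39.9 CPM against 50.03, 61.4 and 32.3 CPM. The day 7 libraries lay within the steady-state range in Foxn1 and Psmb11, as did replicates 1 and 2 in Dll4, and the intervals (-2.35 to 0.34 for Foxn1, -2.43 to 1.95 for Psmb11 and -1.05 to 0.73 for Dll4) were too wide to place them. The median of the cTEC list was -0.79 at day 1 and 0.58 at day 4.

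mTEC genes lay lower. Of 25, 24 were below steady state at day 7 with a median log2 fold change of -1.13, where the medians at days 1 and 4 were 0.14 and 0.14. None was called by edgeR, 13 had an unadjusted p under 0.05 and were lower (7.95% of all genes did), 4 were called lower by DESeq2 (3.5% of all genes), and 1, Cldn3, was within 2-fold. In 5 of the 25, Aire, Fezf2, Tnfrsf11a, Cd74 and Ccl21a, every day 7 library was below every steady-state library (4.67% of all genes). Aire was at 59.0, 3.02, 16.2 and 6.78 CPM against 1.37, 2.93 and 0.841 CPM. The highest day 7 library came close to the lowest steady-state library, PBS of day 4, and the log2 fold change was -3.63 (95% interval -5.51 to -1.74, adjusted p = 0.117). Fezf2, a second regulator of tissue-restricted genes that acts apart from AIRE, was at 91.3, 10.1, 34.9 and 9.88 CPM against 7.73, 6.49 and 4.61 CPM. Its log2 fold change was -2.54 (95% interval -4.08 to -1.0, adjusted p = 0.134). Ccl21a, the chemokine of immature mTECs that draws thymocytes into the medulla, was at 184, 53.1, 69.0 and 52.7 CPM against 36.8, 19.8 and 16.4 CPM, a log2 fold change of -1.88 (95% interval -2.86 to -0.90, adjusted p = 0.117). The steady-state libraries stood in the same order in Epcam and Aire, with PBS of day 1 highest and PBS of day 4 lowest, and the part of TEC content in the day 7 values was not tested.

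MHC class II genes, which the mTEC list holds and which cTECs and leukocytes also express, were below steady state, with overlap between the groups in H2-Aa and Ciita. Cd74, the invariant chain, was at 3274, 731, 1587 and 658 CPM against 646, 599 and 480 CPM. Day 7 replicate 1 lay just under the lowest steady-state library, and the log2 fold change of -1.44 had an adjusted p of 0.186. H2-Aa was at -1.33 (95% interval -2.40 to -0.26) and their common regulator Ciita at -1.32 (95% interval -2.58 to -0.07). Keratins differed among themselves: Krt14, of basal epithelial cells, was at -0.98 (95% interval -1.70 to -0.26) and Krt5, its partner, at -0.72 (95% interval -1.64 to 0.19), while Krt18, of simple epithelia and cTECs, was within 2-fold at -0.19 (95% interval -0.99 to 0.60).

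**Figure D3:**
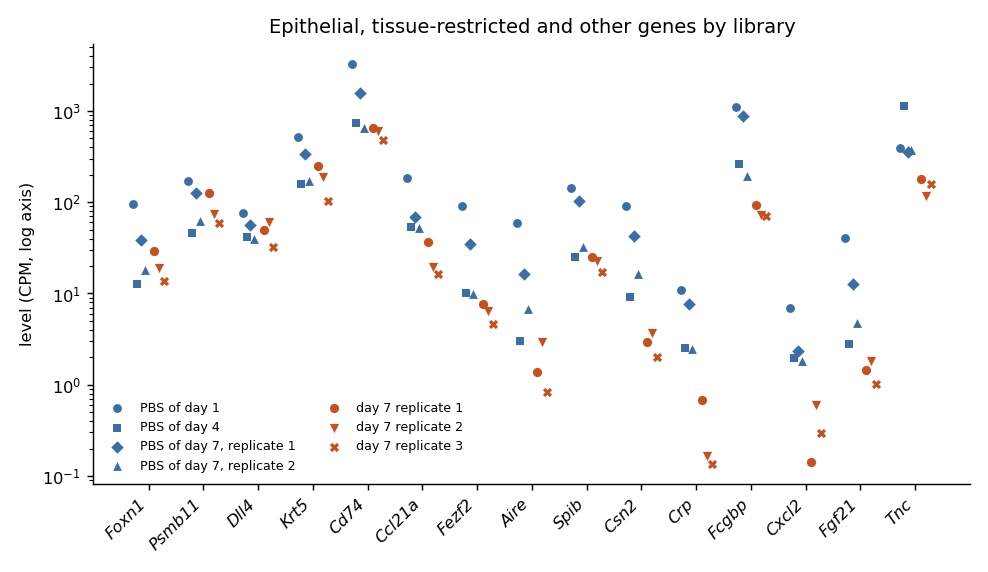
CPM (log axis) of 15 genes in the 4 steady-state (blue) and 3 day 7 libraries (orange), 1 point per library. In Foxn1, Psmb11, Dll4 and Krt5 the colors overlap, and from Ccl21a to Tnc, as in Cd74, the orange points lie below the blue, with the highest day 7 library at 2.93 CPM and the lowest steady-state library at 3.02 CPM in Aire.

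Genes of the mimetic cells followed the mTEC list. Of 52 tested of 56 listed, 45 were below steady state, the median was -0.91, 5 were within 2-fold and 0 were called. At an unadjusted p under 0.05, 22 were lower (7.95% of all genes) and 1 was higher (5.52%), and DESeq2 called 11 lower (3.5%) and 1 higher (1.91%). The share lower at that p was 14.3% and 11.5% in the lower quartiles of expression, and these lists were not matched for level. The lists differed in how far they lay below: the median was -0.78 for tuft, -0.89 for ciliated, -1.05 for muscle, -1.14 for microfold, -1.34 for corneocyte and -1.39 for secretory genes, values that were not compared with each other by a test. Pou2f3, the regulator of tuft cells, was at 18.8, 5.43, 21.1 and 9.69 CPM against 6.93, 9.20 and 7.38 CPM. The groups overlapped, and the interval ran from -1.65 to 0.03. Spib, a factor of microfold cells, was at 142, 25.1, 103 and 32.4 CPM against 24.9, 22.9 and 17.3 CPM, and Ccl20, the chemokine these cells secrete, was at 87.0, 10.7, 29.7 and 10.9 CPM against 3.63, 6.15 and 3.44 CPM. Neither overlapped between the groups, with log2 fold changes of -1.80 (95% interval -2.91 to -0.69, adjusted p = 0.136) and -2.97 (95% interval -4.55 to -1.40, adjusted p = 0.117). Krt10, a keratin of suprabasal skin and corneocyte-like mTECs, was at 32.1, 9.83, 33.8 and 13.8 CPM against 6.97, 7.91 and 7.89 CPM, with an interval from -2.92 to -0.20. Myog, the muscle regulator myogenin, and Foxj1, which switches on the ciliary program, were low at steady state and overlapped between the groups. Hnf4a, the factor of gut and liver epithelium, was at 1.16, 0.175, 0.861 and 0.290 CPM against 0, 0.0819 and 0.0271 CPM, or at most 53 reads in a library.

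Tissue-restricted genes lay farthest from steady state. The list held 20 genes of milk, gut, liver, endocrine organs and brain, of which 18 were tested. A gene could pass the filter through conditions other than day 7. At day 7, 17 of the 18 were below steady state, 0 were within 2-fold and the median log2 fold change was -3.55, after 0.22 at day 1 and -1.17 at day 4. Of all genes in the lower quartiles of expression, 1.36% and 20.9% were within 2-fold. In the same quartiles 14.3% and 11.5% were lower at an unadjusted p under 0.05, and the list was not matched for level. None was called by edgeR, 15 had an unadjusted p under 0.05 and were lower (7.95% of all genes), 10 were called lower by DESeq2 (3.5%), and in 9 every day 7 library was below every steady-state library (4.67%). Csn2, the milk protein beta-casein and a standard example of a gene expressed in mTECs, was at 91.9, 9.05, 42.5 and 16.2 CPM against 2.95, 3.67 and 2.01 CPM. All 3 day 7 libraries were below the lowest steady-state library, and the log2 fold change was -3.79 (95% interval -5.41 to -2.18, adjusted p = 0.111). Crp, the liver acute-phase protein, was at 10.8, 2.52, 7.57 and 2.47 CPM against 0.677, 0.164 and 0.136 CPM, a log2 fold change of -4.14 (95% interval -5.70 to -2.58, adjusted p = 0.111). Gad1, which makes the neurotransmitter GABA, was at 4.04, 0.35, 1.64 and 0.775 CPM against 0.144, 0.143 and 0.108 CPM, a log2 fold change of -3.66 (95% interval -5.56 to -1.76, adjusted p = 0.117). Ins2, the insulin gene, was at 1.51, 0.050, 0.409 and 0.0969 CPM against 0.0205, 0 and 0 CPM, which is too few reads for a fold. Cyp1a1, an enzyme of xenobiotic metabolism, was the exception: it was at 10.7, 1.10, 2.62 and 3.29 CPM against 1.66, 20.5 and 10.7 CPM, with an interval from -0.54 to 3.14.

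Genes of 14 families, known mainly from other tissues, were also examined. The families were picked by name after the values had been seen and so support nothing by themselves. Of 1839 family genes, 162 were expressed enough to test. A gene could pass the filter through any condition. Over all genes tested, 58 had 0 reads in every day 7 library and 4 in every steady-state library. The counts below steady state may therefore partly reflect the filter. Of the 162, 146 were below steady state at a median log2 fold change of -2.23 and 0 were called. In 68 every day 7 library was below every steady-state library (4.67% of all genes), while in 2 every one was above (2.82%). The families differed. The median was -3.90 over 4 caseins, -3.44 over 15 salivary and mucous proteins, -3.19 over 29 hormones and neuropeptides, -2.66 over 10 Skint genes, which are expressed in skin and mTECs, and -2.26 over 19 liver plasma proteins. It was -1.30 over 4 secretoglobins and -0.94 over 11 crystallins, the structural proteins of the lens, and 22 olfactory and vomeronasal receptors had a median of -0.09, with 12 below and 10 above. In 6 of the 162 the day 7 libraries were all at 0 reads, and with those genes set at the bound of their floor the medians were -3.37 for salivary and mucous proteins and -3.02 for hormones and neuropeptides. Skint7 was at 17.8, 4.35, 6.78 and 4.50 CPM against 0.902, 1.72 and 0.949 CPM. Fgb, the fibrinogen beta chain, was at 1.78, 0.300, 0.947 and 0.242 CPM against 0 reads in all 3 day 7 libraries. With 3 reads over the group taken as the floor, 0.0223 CPM, the steady-state mean of 0.816 CPM was 36.6-fold above it. That mean was raised by PBS of day 1, and the ratio does not cover the spread between the steady-state libraries. Gal, the neuropeptide galanin, was at 4.25, 0.600, 1.14 and 0.872 CPM against 0.082, 0.0819 and 0.0542 CPM. The distance between the groups was clear in each of these genes, yet none passed the test after adjustment.

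Within each library, mTEC genes were set against cTEC genes by the mean log2(CPM + 0.5) over the members of each list. The mTEC mean minus the cTEC mean was -1.13, -1.54, -1.45 and -1.65 at steady state and -2.19, -1.94 and -1.92 at day 7. Every day 7 library had lower mTEC relative to cTEC levels than every steady-state library. The tissue-restricted mean minus the mTEC mean was -4.5, -4.55, -4.68 and -4.3 at steady state and -4.88, -4.57 and -4.6 at day 7. Here the groups overlapped, on a scale where the pseudocount compresses genes near or below 0.5 CPM. Both differences were formed after the values had been seen and were not tested.

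**Figure D4:**
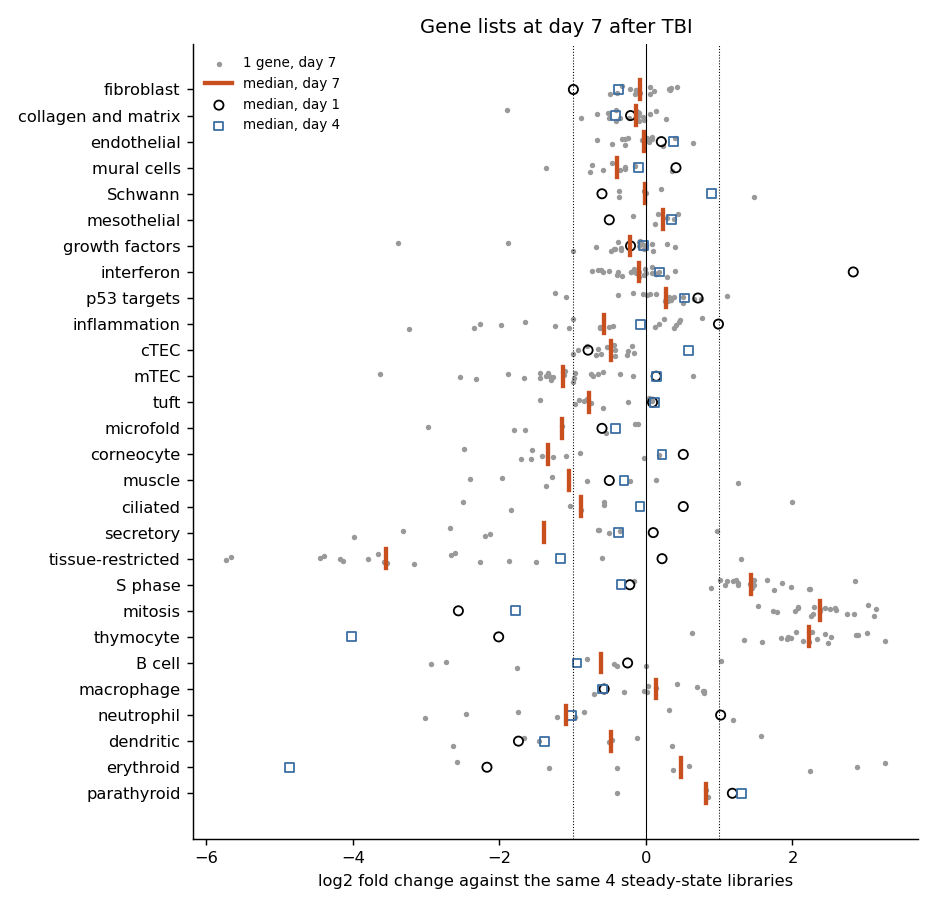
log2 fold changes against the 4 steady-state libraries for each gene list: grey points are single genes at day 7, orange bars their medians, and open circles and squares the list medians at days 1 and 4; dotted lines mark 2-fold. Interferon genes went from a median of 2.83 at day 1 to -0.10 at day 7, tissue-restricted genes lay at -3.55 and mitosis genes at 2.38 at day 7.

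Cell cycle and thymocyte genes were above steady state in a way that divided the day 7 libraries. Of 20 S phase genes, 16 had an unadjusted p under 0.05 and were higher, and of 20 mitosis genes 19 (5.52% of all genes), with medians of 1.43 and 2.38. None was called by edgeR, 12 and 18 were called higher by DESeq2 (1.91% of all genes), and in 0 of the 40 did the groups stand apart. Mki67, the proliferation marker, was at 9.21, 6.65, 16.6 and 6.00 CPM against 4.29, 102 and 87.5 CPM. Top2a, the topoisomerase that separates replicated chromosomes, was at 14.8, 38.8, 39.96 and 15.9 CPM against 17.2, 486 and 221 CPM. Ccnb1, the cyclin that starts mitosis, was at 5.90, 23.6, 11.2 and 5.76 CPM against 8.06, 97.5 and 60.1 CPM. Replicates 2 and 3 were far above steady state in each, and replicate 1 was within the steady-state range in Top2a and Ccnb1 and below it in Mki67. The log2 fold changes were 2.75 (adjusted p = 0.136), 3.14 (adjusted p = 0.117) and 2.25 (adjusted p = 0.137). Without replicate 1, 622 genes were called, 568 higher and 54 lower, among them 54 list members higher, and without replicates 2 and 3 the log2 fold change of Mki67 was -1.12.

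The same libraries carried the thymocyte genes. Of 20, all were above steady state, 18 had an unadjusted p under 0.05 (5.52% of all genes were higher at it), 0 were called by edgeR and 13 were called higher by DESeq2 (1.91%), with a median log2 fold change of 2.23 after -2.01 at day 1 and -4.02 at day 4. The mean log2(CPM + 0.5) of the list was 5.38, 4.04, 5.64 and 4.25 at steady state and 3.98, 8.17 and 7.02 at day 7. Ptcra, the invariant chain of the pre-T cell receptor, was at 1.53, 2.00, 3.46 and 0.726 CPM against 1.85, 37.9 and 16.8 CPM. Dntt, the polymerase that adds bases at receptor joints, was at 39.5, 31.6, 86.1 and 29.7 CPM against 30.3, 722 and 288 CPM. Both genes belong to immature thymocytes, and both were high in the replicates that were high in Mki67. The summed level of the list ran from 518.5 to 1563 CPM at steady state and from 485.9 to 7881 CPM at day 7. Cd8b1, a chain of the CD8 coreceptor and among the largest falls from day 1 to day 4, was at 80.9, 35.1, 102 and 38.8 CPM against 35.2, 712 and 329 CPM. Its log2 fold change was -7.54 at day 4 (adjusted p = 0.00487) and 2.48 at day 7 (95% interval 0.95 to 4.02, adjusted p = 0.136). With the mean level of this thymocyte list in each library as a covariate, the medians of the S phase and mitosis lists were 0.55 and 0.48, with 0 members called. In that fit 18 list members were called lower, 6 of them tissue-restricted genes.

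**Figure D5:**
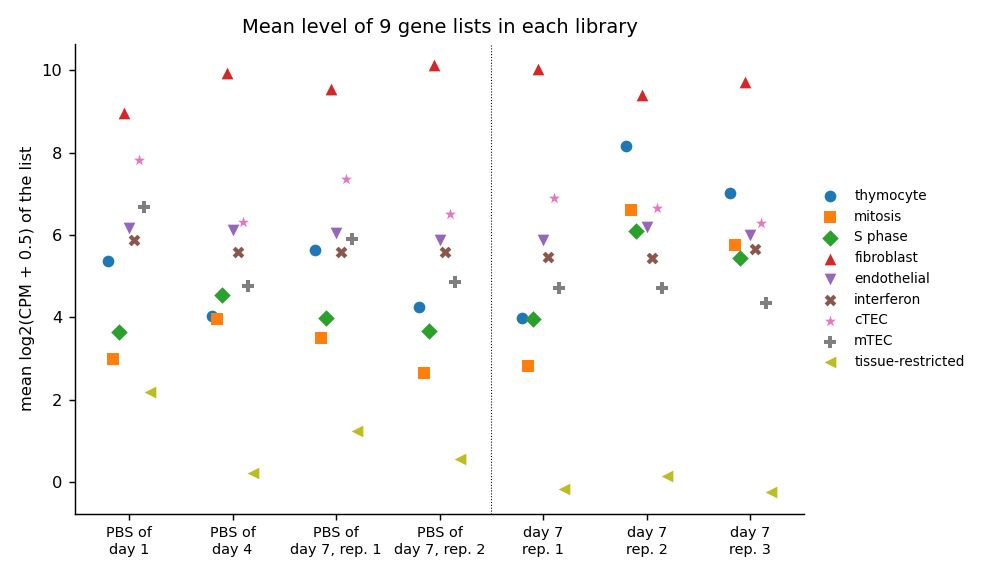
Mean log2(CPM + 0.5) of 9 gene lists in each of the 7 libraries, steady state to the left of the dotted line and day 7 to the right. Thymocyte, mitosis and S phase levels are high in day 7 replicates 2 and 3 and not in replicate 1, and tissue-restricted levels are at -0.16, 0.14 and -0.25 at day 7 against 0.21 to 2.19 at steady state, where the pseudocount compresses genes near or below 0.5 CPM.

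The promoters of mitotic genes are shown because all 20 of the list lay above steady state, although none was called. Cell cycle genes often carry the letters TTTGAA, the cell cycle genes homology region, and CCAAT boxes, which bind NF-Y. The windows run from 250 bases before the start to 50 after it in the RefSeq table of GRCm38.p6, with TTTGAA and CCAAT on either strand in capitals. They are chr7:135716330-135716629 for Mki67, chr11:99024140-99024439 for Top2a and chr13:100786437-100786736 for Ccnb1, all on the minus strand.
Mki67: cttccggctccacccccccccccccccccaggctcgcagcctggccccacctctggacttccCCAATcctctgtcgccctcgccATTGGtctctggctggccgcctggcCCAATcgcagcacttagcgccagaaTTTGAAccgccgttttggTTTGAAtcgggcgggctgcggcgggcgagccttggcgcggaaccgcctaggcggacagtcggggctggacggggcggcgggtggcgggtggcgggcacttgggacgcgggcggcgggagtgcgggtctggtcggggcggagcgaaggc
Top2a: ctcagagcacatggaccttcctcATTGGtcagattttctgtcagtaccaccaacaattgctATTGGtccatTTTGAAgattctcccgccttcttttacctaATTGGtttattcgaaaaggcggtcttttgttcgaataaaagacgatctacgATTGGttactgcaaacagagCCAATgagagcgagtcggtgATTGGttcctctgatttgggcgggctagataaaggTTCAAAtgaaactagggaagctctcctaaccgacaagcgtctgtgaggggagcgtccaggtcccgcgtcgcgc
Ccnb1: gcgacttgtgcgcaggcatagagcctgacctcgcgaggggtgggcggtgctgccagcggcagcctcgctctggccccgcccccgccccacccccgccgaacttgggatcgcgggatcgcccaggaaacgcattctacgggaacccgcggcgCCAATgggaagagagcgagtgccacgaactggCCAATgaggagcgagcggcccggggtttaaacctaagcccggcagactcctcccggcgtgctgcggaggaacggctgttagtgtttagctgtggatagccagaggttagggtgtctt

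Mki67 held TTTGAA at 2 positions and CCAAT at 3, Top2a held them at 2 and 6, and Ccnb1 held CCAAT at 2 and TTTGAA at 0. The TTTGAA nearest to the start began 23 bases before it in Top2a and 98 bases before it in Mki67. Over the 16 mitosis genes with a promoter in the table, 11 (68.8%) held TTTGAA and 14 (87.5%) held CCAAT, against 18.1% and 37.9% of all 27025 genes. Over 16 S phase genes with one, 2 (12.5%) held TTTGAA and 11 (68.8%) held CCAAT. Ccna2, the third of the mitosis list, was not in the table.

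T cell receptor gamma genes were among those farthest above steady state at day 7. Tcrg-C2 was at 1.95, 1.35, 3.87 and 0.775 CPM against 3.10, 92.0 and 41.2 CPM, and Tcrg-C4 at 0.921, 0.525, 1.23 and 0.387 CPM against 0.841, 44.95 and 17.9 CPM. Replicate 1 again lay among the steady-state libraries, and the log2 fold changes of 4.50 and 4.76 did not pass the test (adjusted p = 0.111 for both). How the counting shared reads among T cell receptor gamma genes was not tested. Both were named for their small p-values, after the values had been seen, as were Isca1, Ccn5, Fcgbp, Dsg1a, Ly6g, Skint7 and Gal.

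Markers of other cells that the sort could hold were mixed. Of 11 macrophage genes 3 were within 2-fold, with a median of 0.14 and a summed level of 68.11 to 184.5 CPM at steady state and 57.27 to 185.4 CPM at day 7. Of 8 B cell genes, 3 had an unadjusted p under 0.05 and were lower (7.95% of all genes). Cr2, the complement receptor of mature B cells, was at 22.2, 1.55, 14.5 and 2.52 CPM against 0.759, 1.62 and 1.65 CPM, where day 7 overlapped PBS of day 4. Of 8 neutrophil genes 6 were below steady state, and Mpo, the granule peroxidase, was at 8.44, 2.10, 5.44 and 1.79 CPM against 0.328, 0.983 and 0.325 CPM, with no overlap (log2 fold change -3.02, adjusted p = 0.117). Ly6g, the surface marker of neutrophils, was at 3.58, 0.400, 0.818 and 0.726 CPM against 0.041, 0.0615 and 0.0271 CPM. Of 8 dendritic cell genes 6 were below, and the 3 parathyroid genes had a median of 0.82. Of 8 erythroid genes, 5 were above and 3 below steady state with a median of 0.48, and log2 fold changes ran from -2.58 to 3.27. At an unadjusted p under 0.05 by edgeR, 3 were higher (5.52% of all genes) and 2 lower (7.95%), so the list did not move as 1. Alas2, which starts heme synthesis in red cell precursors, was at 3299, 1510, 3471 and 1803 CPM against 233, 624 and 409.6 CPM. All day 7 libraries were below all steady-state libraries at a log2 fold change of -2.58 (95% interval -3.68 to -1.48, adjusted p = 0.111), after -2.21 at day 1 (adjusted p = 0.0352) and -9.24 at day 4 (adjusted p = 3.32e-05).

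Inflammatory genes had 12 of 20 members below steady state and 2 within 2-fold. The median was 0.99 at day 1, -0.07 at day 4 and -0.57 at day 7. Lcn2, an acute-phase protein, rose by 6.12 on the log2 scale at day 1 (adjusted p = 0.000275) and was at 12, 37.7, 13.1 and 8.04 CPM against 17.3, 9.98 and 46.3 CPM at day 7, where the groups overlapped (interval -0.79 to 1.72). Cxcl2, a chemokine for neutrophils, was at 6.95, 1.95, 2.35 and 1.84 CPM against 0.144, 0.594 and 0.298 CPM. Cxcl10, an interferon-induced chemokine for T cells, was at 88.9, 20.7, 29.2 and 19.3 CPM against 8.63, 8.34 and 6.37 CPM. In both, all day 7 libraries were below all steady-state libraries, with log2 fold changes of -3.23 (adjusted p = 0.111) and -2.34 (adjusted p = 0.117). Cxcl10 had risen by 4.17 at day 1 (adjusted p = 0.000916).

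Of all genes, 38 shared the next smallest adjusted p of 0.111, 34 of them below and 4 above steady state. Isca1, which helps assemble iron-sulfur clusters in mitochondria, was at 201, 180, 209 and 181 CPM against 116, 92.0 and 87.5 CPM. The steady-state libraries were close together and all above day 7, and the log2 fold change was -0.97 (95% interval -1.34 to -0.60). Isca1 was also lower at day 1 (-1.33, adjusted p = 0.000916) and at day 4 (-0.92, adjusted p = 0.0438). Fcgbp, a mucus protein of goblet cells, was at 1110, 264.5, 872 and 193 CPM against 93.6, 72.4 and 70.4 CPM, a log2 fold change of -2.95 (95% interval -4.12 to -1.79). Dsg1a, a desmosomal cadherin of skin, was at 49.0, 6.55, 25.5 and 7.65 CPM against 2.24, 2.21 and 1.95 CPM, a log2 fold change of -3.38 (95% interval -4.78 to -1.98). The day 7 libraries lay close together in both epithelial genes, below every steady-state library. Ccn5, a secreted protein of the CCN family, was above steady state, at 16.8, 19.9, 19 and 17.96 CPM against 57.8, 81.1 and 29.4 CPM, a log2 fold change of 1.61 (95% interval 0.97 to 2.24) after a rise of 3.33 at day 1 (adjusted p = 0.000101).

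Which genes were called turned on single libraries. With PBS of day 4 left out, 220 genes were called, 17 higher and 203 lower. With day 7 replicate 1 left out, 622 were called, mostly higher. With any other of the 7 left out, 0 were called. PBS of day 4 was the steady-state library with the lowest Epcam and Aire levels, and day 7 replicate 1 was the day 7 library with the lowest Ptprc and Mki67 levels.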

How the data were processed

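RNA was measured by sequencing in CD45- thymic cells. Per the submitters' processing notes, the authors used Trimmomatic 0.38, STAR 2.7.0e and featureCounts 1.6.3 with GRCm38.p5. The deposited values are whole-number counts for 53379 genes per library, without normalization, and the table also gives exon lengths, which were not used here. No other column of the table was left out. Symbols came from the GENCODE annotation of GRCm38 and matched 53274 identifiers. Groups came from the sample labels. The 4 steady-state columns could be tied to their group but not to single labels.

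All 13 libraries entered 1 fit in edgeR 4.0.16 (R 4.3.3) with a term for condition: TMM normalization, filterByExpr() by condition (at least 10 counts in enough libraries), and the quasi-likelihood F-test, with Benjamini-Hochberg adjustment over the 19984 genes tested and a threshold of 0.05 without a fold threshold. The filter counted all conditions, so a gene near 0 at day 7 could be tested through another one. The 95% intervals come from the coefficient, its standard error and the degrees of freedom of the fit. A gene counted as within 2-fold when its whole interval lay between -1 and 1 on the log2 scale. A gene counted as not overlapping when all 3 day 7 libraries lay on 1 side of all 4 steady-state libraries. Each condition was compared with the same steady-state libraries, so their values are given side by side only. The closest of the 7 libraries differed by 99.6 per degree of freedom in a chi-square test of their counts, so none was a copy. The steps were tested on simulated data.

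Named genes follow a rule: the 12 largest called rises and falls among protein-coding genes of at least 5 CPM whose groups did not overlap (which gave 0), list members that were called (0), the first 4 members of 28 lists and the members within 2-fold, with a selection of these given in the text, the 6 largest rises and falls between days 1 and 4 (of these falls, Alas2 and Cd8b1 are reported here), and 4 lineage genes. The members and lists were chosen with earlier results of these data known. Other list members, the gene families and genes with the smallest p-values were added after the values were seen. The alternatives were DESeq2 1.42.0, limma 3.58.1 (voom), RLE or total-count scaling, scaling on FB genes, other filters, a fit of only these groups, covariates, a replicate block and each library left out. Robust estimation, the count of voom calls, and leaving out day 7 replicates 2 and 3 together were chosen after seeing the data. Depth limits low genes: 3 reads over the day 7 libraries correspond to 0.0223 CPM, and this floor covers counting error only. Some genes that the rule or the p-values selected are not reported here.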

Additional observations from a re-analysis of the deposited data

Results flagged for a closer look

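Dixon's ratio was computed for 164 levels over the 4 steady-state libraries, the mean levels of the lists and the levels of the genes named, on the log2(CPM + 0.5) scale. It passed the critical value at the 95% level for 5 of them, where chance alone passes it for about 1 in 20, and groups of 3 libraries were not examined. PBS of day 1 was far above the others in the mean level of the interferon list (ratio 0.941), in Ifit3 (0.928) and in Cxcl2 (0.831). PBS of day 4 was far above the others in Tnc (0.899) and far below them in Omd (0.931). For Tnc and Cxcl2 all 3 day 7 libraries lay below the remaining steady-state libraries as well, and for the interferon list, Ifit3 and Omd the day 7 libraries lay on both sides of the remaining ones.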

How the results depend on the processing

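The count of 1 gene called at day 7 stayed at 1 with RLE factors and robust estimation. It was 0 with total-count scaling, at least 10 counts in every library, only the 2 groups, the opening characters of the tag as a covariate, scaling on FB genes, and limma voom. That covariate did not hold the m0 part of the tag, which cannot be told apart from day 7. It was 1081 with DESeq2, 627 without a filter and 256 with the thymocyte covariate (251 lower), and 0 to 622 with 1 library left out. List members called (0 as reported) numbered 82 with DESeq2, 66 without a filter, 18 with the thymocyte covariate, and 0 to 60 with 1 library left out. Gm32051 kept a positive log2 fold change in all 20 settings that tested it (3.25 to 4.96) and was called in 8. Genes within 2-fold numbered 3364 with scaling on FB genes, 3417 without day 7 replicates 2 and 3, 1470 with a margin of 1.5-fold, and 5256 to 7186 with 1 library left out. Genes called between days 1 and 4 numbered 960 with DESeq2 and 163 with the opening characters of the tag as a covariate. Of these, 512 and 109 were within 2-fold at day 7. Without day 7 replicates 2 and 3 it was 57, and with 1 library left out 105 to 183. The fit of only the 2 groups gives no value for days 1 and 4.

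In the fit with the replicate block, 0 genes were called at day 7, and 147 between days 1 and 4, of which 81 were within 2-fold at day 7. Deviations of same-numbered libraries from their group means had a mean correlation of -0.128 over 4 pairs, from -0.311 to 0.356. Over the 8 other pairs it was 0.0678, from -0.239 to 0.255. The pairs reuse the same libraries and group means, so they constrain each other. They cannot show whether same-numbered libraries share more than a number.

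Directions reversed in genes of thymocytes and the cell cycle. With the thymocyte covariate the log2 fold change was -0.56 for Ptprc, -0.44 for Rag1 and -0.13 for Cd3e. This covariate was the mean level of the thymocyte list itself. Its members were thus set against their own mean, which fixed their median near 0 in advance (-0.08), so their signs under it carry no information. Without day 7 replicates 2 and 3, where replicate 1 alone is assumed to vary like the other groups, it was -1.69 for Ptprc, -0.06 for Mcm2, -0.08 for Mcm5, -1.12 for Mki67, -0.63 for Top2a, -0.49 for Ccnb1, -1.57 for Rag1, -0.71 for Rag2, -1.24 for Cd3e, -0.03 for Ptcra, -0.58 for Dntt and -0.82 for Cd8b1. The medians of tissue-restricted and mTEC genes stayed below 0 under all 21 settings (-3.96 to -2.40 and -1.46 to -0.65), and that of interferon genes ran from -0.24 to 0.04. The causes were not tested.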
